A study of Mus musculus with 42 samples.

Results

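Gene expression was compared between neuronal cultures of trisomic mice that were labelled as carrying a disrupted copy of Brwd1 (Ts65Dn;Brwd1+/-) and cultures labelled Ts65Dn. The libraries were chosen by their labels, 3 of each genotype, out of 9 culture libraries and 42 samples in the series, and the genes compared were the 16513 expressed genes on autosomes out of 17173 expressed genes. Primary cultures were made from the cortex of embryos on embryonic day 16, which the labels call forebrain (another passage of the methods gives a later embryonic day), and were treated with AraC, an agent that limits the division of glia. Both groups come from Ts65Dn mice, which carry a freely segregating extra chromosome with distal chromosome 16 and proximal chromosome 17 material. The mutant allele is the Brwd1 repro5 mutation, and all genotypes were kept on a mixed DBA/2J x B6EiC3Sn/J background. Euploid cultures (3 libraries) were grown in the same way and are given beside the trisomic ones for orientation. The labels describe the material as pooled from males and females, while according to the methods each embryo was dissociated by itself, so whether 1 library is 1 embryo is not certain.

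Brwd1 encodes a bromodomain and WD-repeat protein that reads histone acetylation, and its gene lies in the segment that is present in an extra copy in Ts65Dn. Cultures of embryonic cortex hold excitatory neurons born in the dorsal telencephalon, inhibitory interneurons that migrate in from the ventral telencephalon, and a varying share of glia and progenitors. Which part of the brain a neural cell comes from is recorded by its transcription factors: Emx factors in the telencephalon, Dlx and Nkx2-1 in its ventral part, and Pax3, Pax7, Irx and En factors in diencephalon, midbrain, hindbrain and dorsal neural tube.

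Brwd1 counts did not set the groups apart in the direction the label gives. They were 129, 126 and 125 CPM (the counts of a gene scaled to its library's total) in the Ts65Dn libraries, 145, 146 and 124 CPM in the libraries labelled Ts65Dn;Brwd1+/- and 93.2, 85.9 and 89.2 CPM in euploid libraries. The libraries labelled Ts65Dn;Brwd1+/- were thus not lower (log2 fold change 0.13 with SE 0.08, edgeR quasi-likelihood test, adjusted p = 0.182), and only the label gives the genotype. The sex-linked genes, which are outside the comparison, also separated the groups. Xist, which coats the silenced X chromosome in female cells, was measured at 1947, 1982 and 1409 CPM in the libraries labelled Ts65Dn;Brwd1+/- and at 0.898, 0.790 and 1.10 CPM in the Ts65Dn libraries, and the Y-linked genes were at 0.0892, 0.0557 and 0.149 CPM against 216, 207 and 216 CPM in sum. Sex and genotype label therefore cannot be told apart in any result that follows, and the genes of both sex chromosomes were left out.

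Total counts in genes lay between 17270070 and 25892802 in the 6 libraries. Across genes, the libraries of a genotype spread most in Ts65Dn, with a biological coefficient of variation of 0.162 against 0.0846 in the libraries labelled Ts65Dn;Brwd1+/- and 0.100 in euploid. The first principal component over autosomal genes held 66.0% of the variance. Ts65Dn replicate 3 stood apart on it, at 90.7, with the other Ts65Dn libraries at 53.2 and 60.3, euploid libraries between -18.4 and -10.03, and those labelled Ts65Dn;Brwd1+/- between -62.5 and -47.0. Medians of the neuronal lists, whose levels were lowest in this library, are therefore also given without it.

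Most autosomal genes passed the test. Of 16513 genes, 9597 (58.1%) had an adjusted p under 0.05 in edgeR's quasi-likelihood test with Benjamini-Hochberg adjustment, 4552 of them higher (27.6%) and 5045 lower (30.6%) in the libraries labelled Ts65Dn;Brwd1+/-. The words "rose" and "fell" are used here for genes that passed this test, and a positive log2 fold change means higher in the libraries labelled Ts65Dn;Brwd1+/-. A change of more than 1.5-fold was found for 6040 of the called genes (36.6% of those tested), and 1467 rose and 2205 fell by more than 2-fold. The 3 libraries of one group lay entirely above or below the other for 68.5% of genes (33.5% higher, 35% lower). Leaving out Ts65Dn replicate 3 gave 8677 calls, and leaving out any other library gave between 8046 and 9673. With so large a share of genes called, a family was read against this background, by how many of its members rose or fell and by its median log2 fold change, which was -0.00 over all autosomal genes. The families were 72 lists of 1602 genes, of which 1558 lie on autosomes and 1445 were expressed.

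**Figure D1:**
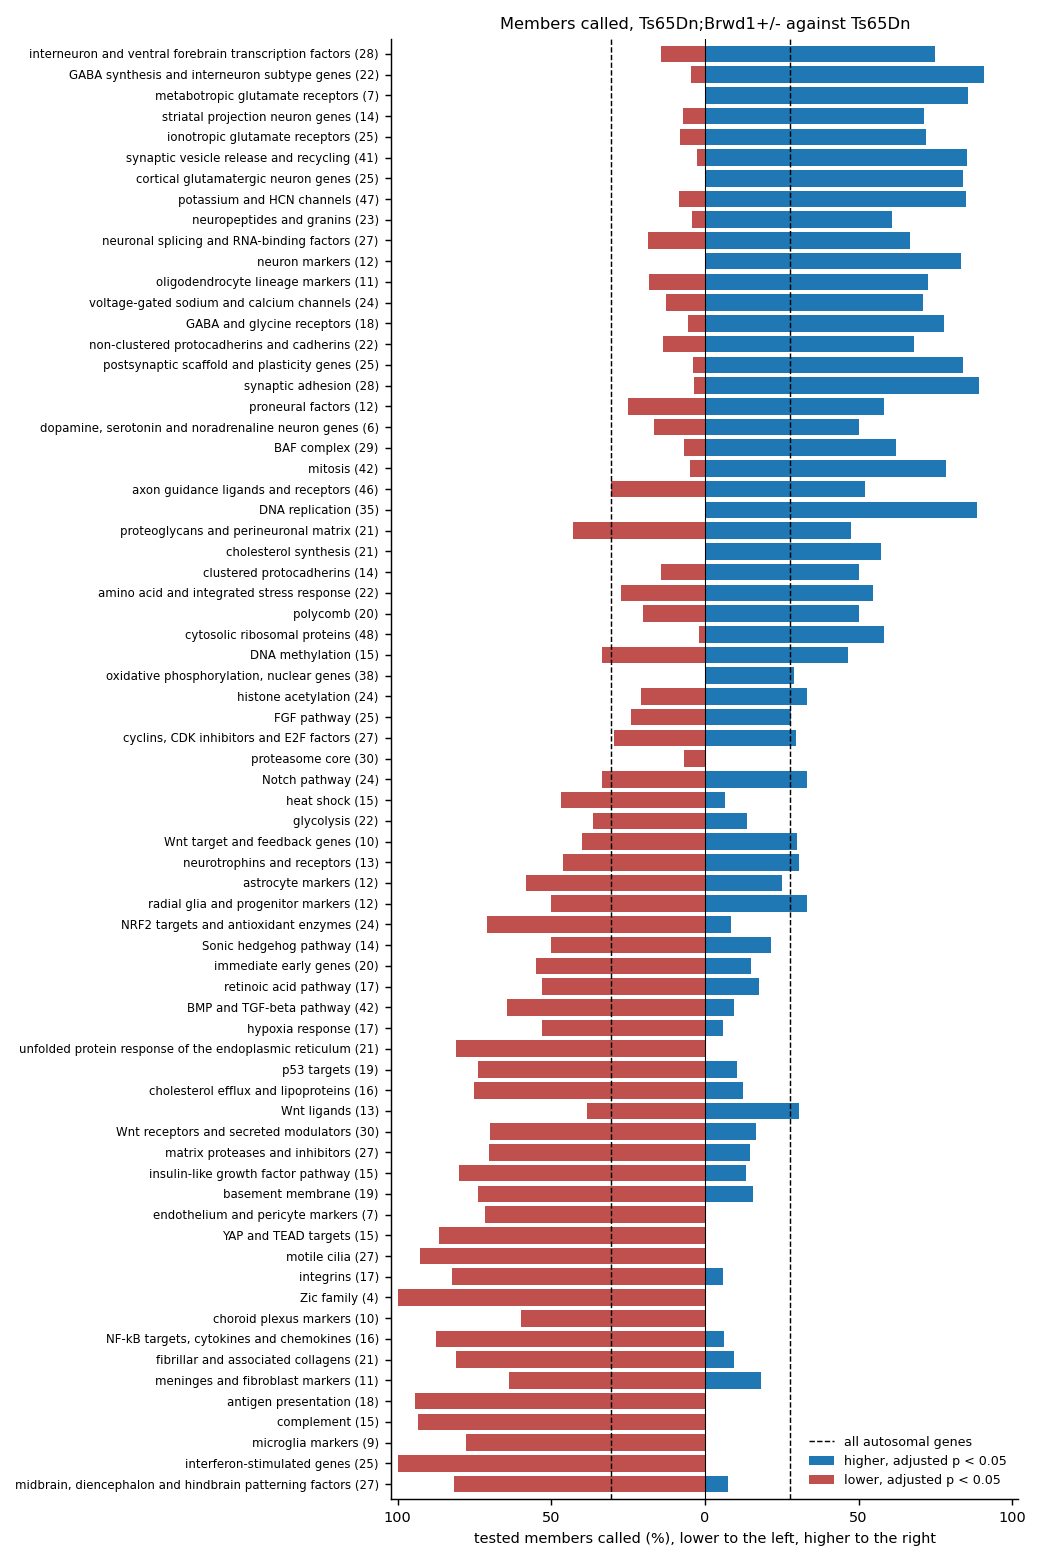
Share of the tested members of each gene list that rose (to the right) or fell (to the left), with the number of tested members in brackets. Dashed lines mark the shares over all autosomal genes, 27.6% higher and 30.6% lower; the lists with at least 4 tested members are ordered by their median log2 fold change, and regional patterning, interferon and complement genes stand at the lower end and ventral forebrain and synaptic genes at the upper end.

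The largest rises among protein-coding genes at 10 CPM or more belonged largely to transcription factors of the forebrain and its progenitors, and the largest falls to transcription factors of more posterior brain. The 10 largest rises were Eomes, Nkx2-1, Vax1, Dcn, Mfng, Dlx2, Sp9, Gsx1, Hes5 and Myt1, with log2 fold changes from 5.31 to 3.41. Vax1 marks the ventral forebrain, Mfng modifies Notch receptors, and Dcn is decorin, a small matrix proteoglycan made by fibroblasts. The 10 largest falls were Pax3, Pax7, Irx2, Irx1, Irx3, Barhl2, Spp1, Irx5, Ifi44 and C1qtnf3, from -8.23 for Pax7 to -5.44 for C1qtnf3, leaving out Pax3, which had no count in 1 group and no firm fold. Barhl2 is a homeobox factor of the diencephalon and dorsal neural tube, Spp1 is osteopontin, a secreted phosphoprotein of matrix and of activated macrophages, and Ifi44 is induced by interferon. All 20 were non-overlapping between the groups, which the choice of genes required.

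Transcription factors of the ventral forebrain and its interneurons rose together. Of 28 tested, 21 rose and 4 fell, with a median log2 fold change of 2.05. Of the 22 with at least 10 counts in every library, 16 rose and the median was 1.20. Dlx2 (mm10 chromosome 2, 71543408 to 71546754), a homeobox factor needed for interneuron differentiation, was at 6.25, 5.33 and 8.74 CPM in Ts65Dn and at 105, 90.9 and 119 CPM in the libraries labelled Ts65Dn;Brwd1+/-. The groups lay far apart, and the euploid libraries, at 13.3, 12.5 and 13.98 CPM, lay nearer to Ts65Dn (log2 fold change 3.95 with SE 0.17, edgeR quasi-likelihood test, adjusted p = 9.46e-08). Its neighbour Dlx1 was at 25.4, 19.9 and 19.9 CPM against 198, 187 and 230.0 CPM (log2 fold change 3.24 with SE 0.12, edgeR quasi-likelihood test, adjusted p = 2.59e-08). Nkx2-1, which specifies the medial ganglionic eminence where many cortical interneurons are born, went from 0.122, 0.346 and 0.574 CPM to 11.995, 12.9 and 12.1 CPM (log2 fold change 5.15 with SE 0.26, edgeR quasi-likelihood test, adjusted p = 1.69e-07). Dlx6 (3.86), Dlx5 (2.94), Gsx2 (3.62) and Lhx6 (2.01) rose as well, while Npas1 (-1.32), Nr2f2 (-0.83) and Zfp503 (-0.61) fell (log2 fold changes in brackets). Sox6 (-0.28) fell as well, but did not pass the test without Ts65Dn replicate 3 (edgeR quasi-likelihood, adjusted p = 0.0684), without replicate 1 labelled Ts65Dn;Brwd1+/- (0.0820) or with libraries scaled by size alone (0.0870).

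The genes that make a neuron GABAergic followed the same direction. Among enzymes, transporters and subtype markers of interneurons, 20 of 22 rose and 1 fell, with a median of 1.49 (1.25 without Ts65Dn replicate 3). Gad1, the main enzyme of GABA synthesis, was at 72.3, 59.7 and 35.1 CPM in Ts65Dn and 242, 256 and 264 CPM in the libraries labelled Ts65Dn;Brwd1+/-. The lowest Ts65Dn value was that of replicate 3, and no library of one group reached the other (log2 fold change 2.19 with SE 0.22, edgeR quasi-likelihood test, adjusted p = 2.80e-05). The vesicular GABA transporter Slc32a1 (36.9 to 165 CPM, log2 fold change 2.16) and the subtype peptides Sst (17.6 to 78.02 CPM, log2 fold change 2.15), Npy (7.43 to 28.4 CPM, log2 fold change 1.94) and Vip (0.284 to 2.60 CPM, log2 fold change 3.11) rose, and Pvalb, the parvalbumin gene of fast-spiking interneurons, was the member that fell (from 3.52 ± 0.467 to 0.480 ± 0.186 CPM, SD, n = 3 each, log2 fold change -2.88). Vip had only 20 counts in the Ts65Dn libraries, and its log2 fold change ranged from 2.53 to 4.71 over the alternative settings.

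Of 14 genes of striatal projection neurons, 10 rose and 1 fell (median 1.39, and 1.15 without Ts65Dn replicate 3), led by the adenosine receptor Adora2a (1.37 to 13.7 CPM, log2 fold change 3.31) and the zinc finger factor Bcl11b (12.4 to 110.0 CPM, log2 fold change 3.15). Among 25 genes of cortical glutamatergic neurons, 21 rose and none fell (median 1.13, and 0.82 with 1 member lower without Ts65Dn replicate 3). Eomes (mm10 chromosome 9, 118478212 to 118486132), which marks intermediate progenitors of excitatory neurons, was at 0.204, 0.494 and 0.177 CPM in Ts65Dn, 11.5, 9.97 and 12.8 CPM in the libraries labelled Ts65Dn;Brwd1+/- and 2.28, 2.32 and 3.32 CPM in euploid. The 3 genotypes did not overlap, with Ts65Dn the lowest (log2 fold change 5.31 with SE 0.28, edgeR quasi-likelihood test, adjusted p = 1.98e-07).

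Patterning factors of midbrain, diencephalon and hindbrain moved the opposite way, and some were close to absent outside Ts65Dn. Of 27 tested, 22 fell and 2 rose, with a median of -3.97. Only 12 of them had at least 10 counts in every library, and of these 8 fell and 3 rose, with a median of -1.64. The others were below that count in at least 1 library, so the list's median rests largely on genes near 0 in a group. Pax3 (mm10 chromosome 1, 78101267 to 78197134), a paired-box factor of the dorsal neural tube, was at 17.2, 19.6 and 20.7 CPM in the Ts65Dn libraries and had no count in the 3 libraries labelled Ts65Dn;Brwd1+/- or in the 3 euploid libraries. Against a floor of 3 counts over the group, its level in Ts65Dn was at least 429-fold higher. Pax7, its close relative, had 1311 counts in the Ts65Dn libraries and 4 in those labelled Ts65Dn;Brwd1+/-, or 15.6, 19.3 and 23.7 CPM against 0.0446, 0.0557 and 0.0747 CPM (log2 fold change -8.23 with SE 0.38, edgeR quasi-likelihood test, adjusted p = 8.38e-08). Irx2, an Iroquois homeobox factor, was at 25.8, 27.3 and 31.6 CPM against 0.268, 0.0557 and 0.299 CPM, with euploid libraries at 0.194, 0.175 and 0.0911 CPM (log2 fold change -6.95 with SE 0.24, edgeR quasi-likelihood test, adjusted p = 1.56e-08). In each of these the Ts65Dn libraries stood alone, since the euploid values lay with those labelled Ts65Dn;Brwd1+/-.

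Otx2 and the Zic genes, by contrast with Pax3, Pax7 and Irx2, kept some expression in the libraries labelled Ts65Dn;Brwd1+/-. Otx2, which sets up forebrain and midbrain, was at 58.4, 60.8 and 69.9 CPM in Ts65Dn, 8.43, 13.3 and 12.1 CPM in the libraries labelled Ts65Dn;Brwd1+/- and 3.15, 3.95 and 3.96 CPM in euploid (log2 fold change -2.49 with SE 0.15, edgeR quasi-likelihood test, adjusted p = 6.09e-07). En1 (-3.20) and En2 (-2.93), which pattern the midbrain-hindbrain junction, Lmx1b (-4.08), which specifies dopaminergic and serotonergic neurons, and Tcf7l2 (-1.41), a Wnt effector of the thalamus, fell, and Nkx2-2 (1.24) and Tal1 (1.28) rose. The Zic genes, zinc finger factors of the dorsal midline, fell in 4 of 4 cases (median -1.44). Zic1 was at 97.9, 101 and 124 CPM against 35.5, 40.8 and 41.6 CPM, and at 8.35, 9.47 and 11.1 CPM in euploid (log2 fold change -1.45 with SE 0.12, edgeR quasi-likelihood test, adjusted p = 3.04e-06). The Hox genes, which pattern hindbrain and spinal cord, were all too low to be tested, 23 of 23. In bulk cultures, fewer cells of a type and less RNA per cell cannot be told apart, for these factors as for all lists below. The labels name 1 tissue for all genotypes, and whether the same region was dissected for every library was not tested, here or for the matrix and cilia lists.

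**Figure D2:**
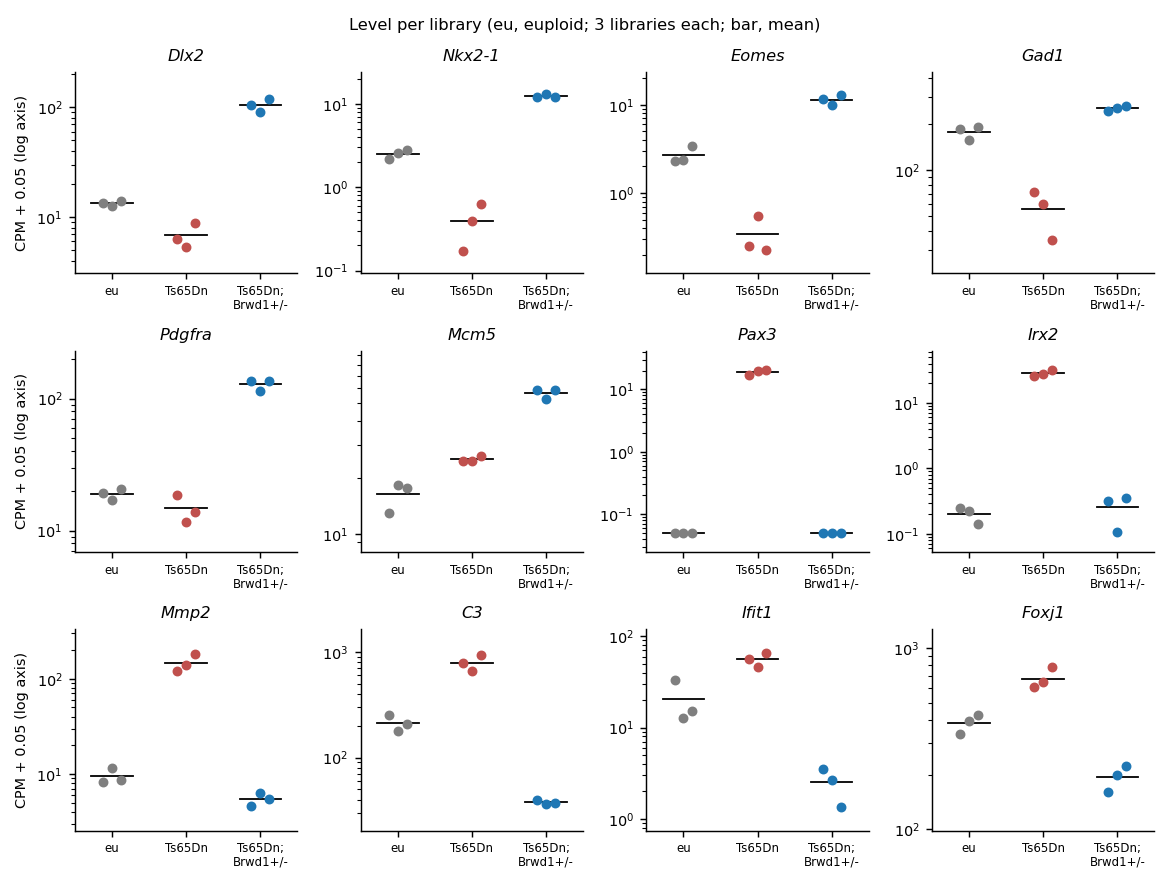
CPM of 12 genes in each of the 9 libraries, on a log axis with 0.05 added, by genotype label; each point is 1 library and each bar the mean of 3. Dlx2, Nkx2-1, Eomes, Gad1, Pdgfra and Mcm5 stand higher, and Pax3, Irx2, Mmp2, C3, Ifit1 and Foxj1 lower, in all 3 libraries labelled Ts65Dn;Brwd1+/- than in any Ts65Dn library.

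Genes of mature neurons rose as a block, and with them the markers of neurons in general. Of 12 pan-neuronal markers, 10 rose and none fell (median 1.01). Their summed level was 2779, 2488 and 1136 CPM in the Ts65Dn libraries, 5394, 4253 and 4423 CPM in those labelled Ts65Dn;Brwd1+/- and 4925, 4810.1 and 4126 CPM in euploid. Ts65Dn replicate 3 was the lowest by far, and without it the median was 0.67. Replicate 1 labelled Ts65Dn;Brwd1+/- was the highest, and without it 6 markers rose (median 0.90). Tubb3, the tubulin of neurons, shows this, with 375, 339 and 107 CPM against 1208, 835 and 957 CPM (log2 fold change 1.87 with SE 0.39, edgeR quasi-likelihood test, adjusted p = 0.00247). What part the number of neurons has in the interneuron, striatal, cortical and synaptic lists was not tested, and their medians are best read beside this one.

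Among receptors, those for glutamate and GABA rose. Of 25 ionotropic glutamate receptor genes and their partners, 18 rose and 2 fell (median 1.21), of 7 metabotropic receptors 6 rose (median 1.46), and of 18 genes of GABA and glycine receptors and chloride transport 14 rose and 1 fell (median 0.97). Without Ts65Dn replicate 3 these medians were 0.88, 1.06 and 0.70. The kainate receptor subunit Grik3 had the largest rise among them, at 32.9, 30.3 and 25.6 CPM against 211, 183 and 211 CPM and 61.2, 56.8 and 60.8 CPM in euploid (log2 fold change 2.77 with SE 0.10, edgeR quasi-likelihood test, adjusted p = 2.13e-08). The NMDA receptor subunits Grin1 (147 to 313 CPM, log2 fold change 1.09) and Grin2b (153 to 360.3 CPM, log2 fold change 1.24) and the AMPA receptor subunit Gria2 (210.3 to 559 CPM, log2 fold change 1.41) rose, whereas the AMPA subunit Gria1 differed little, with 459 ± 46.5 and 496 ± 14.4 CPM (SD, n = 3 each, log2 fold change 0.11 with SE 0.09, edgeR quasi-likelihood test, adjusted p = 0.326). Slc12a5 (122 to 339 CPM, log2 fold change 1.47), the chloride exporter of mature neurons, rose, and Slc12a2 (104 to 79.98 CPM, log2 fold change -0.38), the chloride importer of immature ones, fell. Without replicate 1 labelled Ts65Dn;Brwd1+/-, 13 ionotropic, 4 metabotropic and 7 GABA and glycine receptor genes rose, and Grin1 (adjusted p = 0.196), Grin2b (0.121) and Slc12a5 (0.0684, edgeR quasi-likelihood test) no longer passed the test.

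Channels and the release machinery gave like shares. Of 47 potassium and HCN channel genes 40 rose and 4 fell (median 1.12), and of 24 sodium and calcium channel genes 17 rose and 3 fell (median 1.00). The members that fell included Kcnj10 (570.1 to 417 CPM, log2 fold change -0.45), the inward rectifier with which astrocytes clear potassium. For synaptic vesicles, 35 of 41 rose (median 1.15), with Synpr (14.9 to 86.4 CPM, log2 fold change 2.53) ahead of the calcium sensor Syt1 (229 to 509 CPM, log2 fold change 1.15) and the fusion protein Snap25 (115 to 237 CPM, log2 fold change 1.04). Postsynaptic scaffolds rose in 21 of 25 cases (median 0.88), with Shank1 (161 to 517 CPM, log2 fold change 1.68) and Dlgap3 (85.9 to 253 CPM, log2 fold change 1.56) above Dlg4 (297 to 548 CPM, log2 fold change 0.88), and synaptic adhesion genes in 25 of 28 (median 0.87). Without Ts65Dn replicate 3 these 5 medians were 0.80, 0.73, 0.82, 0.63 and 0.71 in the same order. Without replicate 1 labelled Ts65Dn;Brwd1+/-, 25, 9, 17, 11 and 20 genes rose, with medians of 1.00, 0.90, 1.06, 0.80 and 0.81. Syt1 and Snap25 then no longer passed the test (edgeR quasi-likelihood, adjusted p = 0.102 and 0.124). Of 23 neuropeptide genes 14 rose and 1 fell (median 1.12, and 0.77 without Ts65Dn replicate 3), among them Nts (0.423 to 6.45 CPM, log2 fold change 3.90), Nxph3 (1.03 to 4.99 CPM, log2 fold change 2.27) and Penk (5.12 to 22.7 CPM, log2 fold change 2.14). Of 46 axon guidance genes 24 rose and 14 fell, a share of falls near the 30.6% of all autosomal genes. The netrin receptor Dcc (2.21) and the repellent Slit1 (1.62) rose, and the class 3 semaphorins Sema3c (-1.89), Sema3d (-1.99) and Sema3f (-1.38) fell.

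**Figure D3:**
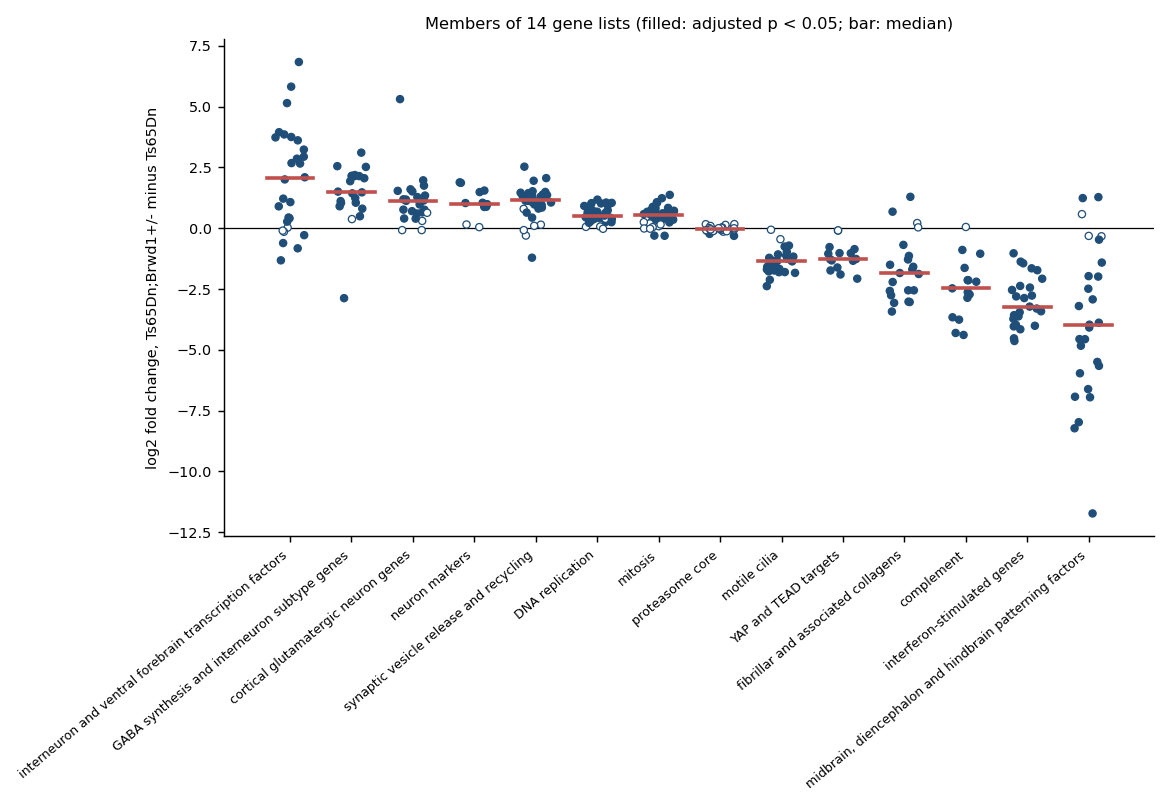
Log2 fold change of each tested member of 14 gene lists, Ts65Dn;Brwd1+/- against Ts65Dn; each point is 1 gene, filled where its adjusted p was under 0.05, and the bar is the median. Members of the ventral forebrain, cortical and synaptic lists lie mostly above 0, those of the patterning, interferon, complement, collagen and cilia lists mostly below, and proteasome genes within a narrow band around 0. The lowest point is Pax3, whose value rests on the fit since 1 group had no count.

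Most DNA replication and mitosis genes rose, by small amounts. Of 35 replication genes, 31 rose and none fell (median 0.52), and of 42 genes of mitosis, 33 rose and 2 fell (median 0.56). The medians without Ts65Dn replicate 3 were 0.59 and 0.58. Mcm5, part of the helicase that opens DNA for replication, was at 24.5, 24.5 and 26.1 CPM in Ts65Dn, 58.3, 52.7 and 58.8 CPM in the libraries labelled Ts65Dn;Brwd1+/- and 12.9, 18.3 and 17.6 CPM in euploid, so all 3 groups were apart (log2 fold change 1.18 with SE 0.11, edgeR quasi-likelihood test, adjusted p = 9.53e-06). Ube2c, a ubiquitin-conjugating enzyme of the anaphase-promoting complex, was at 10.8, 13.6 and 11.7 CPM against 32.999, 27.6 and 32.9 CPM (log2 fold change 1.37 with SE 0.11, edgeR quasi-likelihood test, adjusted p = 3.11e-06), and Mki67 (80.8 to 145 CPM, log2 fold change 0.84), Chaf1b (11.5 to 23.8 CPM, log2 fold change 1.05), Cdc6 (4.55 to 9.31 CPM, log2 fold change 1.03), Ttk (5.59 to 13.2 CPM, log2 fold change 1.24) and Espl1 (12.7 to 26.8 CPM, log2 fold change 1.07) rose. Cdk1, the mitotic kinase itself, was at 28.5 ± 0.923 and 30.2 ± 2.10 CPM (SD, n = 3 each) and did not pass the test (log2 fold change 0.08 with SE 0.08, edgeR quasi-likelihood test, adjusted p = 0.383). Of 27 cyclins, inhibitors of cyclin-dependent kinases and E2F factors 8 rose and 8 fell, shares near the 27.6% and 30.6% of all autosomal genes. E2f2 (2.05) rose, as did Foxm1 (1.11). Among the inhibitors Cdkn2d (0.68) rose and Cdkn1a (-1.31), Cdkn1c (-1.59) and Cdkn2b (-1.67) fell, and the cyclin Ccnd1 (-1.15) fell. Targets of p53 fell in 14 of 19 cases (median -0.58), Cdkn1a and Ccng1 (-1.51) among them.

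Cell cycle genes are known to share promoter elements, so these were read in the RefSeq promoters (GRCm38.p6, 250 bases before to 50 after the start) of 10721 tested protein-coding genes on autosomes. The E2F element GCGGGAA stood on either strand in 13 of 28 replication promoters (46.4%), in 1 of 34 mitosis promoters (2.94%) and in 8.33% of all promoters. The CHR element TTTGAA stood in 25 of 34 mitosis promoters (73.5%) against 11.4% of all, and the CCAAT box CCAAT in 24 of these 34 (70.6%) against 38.5% of all. Among genes that rose as a whole the shares were 8.82%, 11.1% and 36.9%, near those of all promoters. The 200 bases before the start are shown for Cdc6 (chr11:98907951-98908150, plus strand) with its E2F element in capitals, and for Ube2c (chr2:164769729-164769928, plus strand) and Espl1 (chr15:102296093-102296292, plus strand) with CHR and CCAAT elements in capitals, as genes that rose and carry them. In Ube2c the first CCAAT box overlaps its own reverse complement.
Cdc6: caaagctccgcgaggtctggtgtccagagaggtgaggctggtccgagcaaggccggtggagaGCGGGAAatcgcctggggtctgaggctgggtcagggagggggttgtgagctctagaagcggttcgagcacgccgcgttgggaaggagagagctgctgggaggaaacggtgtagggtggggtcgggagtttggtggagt
Ube2c: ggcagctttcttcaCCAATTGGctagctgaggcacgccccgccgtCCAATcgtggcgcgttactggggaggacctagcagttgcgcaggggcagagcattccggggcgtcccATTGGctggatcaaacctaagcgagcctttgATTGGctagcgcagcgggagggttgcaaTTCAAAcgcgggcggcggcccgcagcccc
Espl1: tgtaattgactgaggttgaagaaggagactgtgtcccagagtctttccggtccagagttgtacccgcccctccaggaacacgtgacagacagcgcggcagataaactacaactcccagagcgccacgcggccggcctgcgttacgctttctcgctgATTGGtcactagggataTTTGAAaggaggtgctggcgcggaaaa
In Ube2c the CHR element begins 29 bases before the start and in Espl1 27 bases, and the nearest CCAAT box begins 57 and 44 bases before it. These matches describe letters and not binding.

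Glial and progenitor markers did not move as 1 group. Of 12 astrocyte markers 3 rose and 7 fell (median -0.32), and their summed level was 5796, 5035 and 5545 CPM in Ts65Dn and 4884, 5294 and 5475 CPM in the libraries labelled Ts65Dn;Brwd1+/-. Aqp4, the water channel of astrocyte endfeet, was at 874, 786 and 845 CPM against 229, 284 and 287 CPM (log2 fold change -1.65 with SE 0.15, edgeR quasi-likelihood test, adjusted p = 5.82e-06), and the glutamate transporter Slc1a2 at 245, 145 and 136 CPM against 581, 558 and 540.2 CPM (log2 fold change 1.67 with SE 0.21, edgeR quasi-likelihood test, adjusted p = 1.04e-04). The first fell and the second rose, without overlap in either case. Gfap, the intermediate filament of reactive astrocytes, fell (642 ± 120.4 to 369 ± 73.99 CPM, SD, n = 3 each), and among radial glia and progenitor markers Vim (5733 to 1536 CPM, log2 fold change -1.90) fell, Hes5 (1.34 to 15.5 CPM, log2 fold change 3.51) rose, and Sox2 did not pass the test (218 ± 19.6 and 205 ± 12.5 CPM).

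Of 11 markers of the oligodendrocyte lineage 8 rose and 2 fell (median 1.00, and 0.79 without Ts65Dn replicate 3). Pdgfra, the growth factor receptor of oligodendrocyte precursors and of meningeal fibroblasts, was at 18.6, 11.7 and 13.8 CPM in Ts65Dn, 135, 114 and 136 CPM in the libraries labelled Ts65Dn;Brwd1+/- and 19.2, 16.9 and 20.6 CPM in euploid (log2 fold change 3.12 with SE 0.16, edgeR quasi-likelihood test, adjusted p = 3.20e-07). Here the libraries labelled Ts65Dn;Brwd1+/- stood alone and euploid lay with Ts65Dn. Sox10 (4.63 to 48.4 CPM, log2 fold change 3.37), Gpr17 (0.236 to 9.14 CPM, log2 fold change 5.25) and Cspg4 (18.1 to 43.5 CPM, log2 fold change 1.26) rose too, as did Olig2 (57.6 to 202 CPM, log2 fold change 1.81), which also serves ventral progenitors and lies in the triplicated segment. Of the myelin genes Mbp (5.43 to 9.79 CPM, log2 fold change 0.85) rose and Cnp (94.3 to 63.7 CPM, log2 fold change -0.57) fell. The other member that fell was the ligand Bmp4 (-2.45).

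Genes of motile cilia, the beating cilia of ependymal cells, fell almost without exception. Of 27 tested, 25 fell and none rose, with a median of -1.36. Foxj1, the master factor of this programme, was at 606, 646 and 781 CPM against 159.8, 200.4 and 222 CPM, with euploid libraries between them at 334, 396 and 424 CPM (log2 fold change -1.80 with SE 0.15, edgeR quasi-likelihood test, adjusted p = 3.02e-06). Rsph1 (57.5 to 11.02 CPM, log2 fold change -2.38), of the radial spokes, and Ccno (15.7 to 4.39 CPM, log2 fold change -1.83), which drives the growth of many centrioles, fell, and Dnah5 (26.01 to 15.4 CPM, log2 fold change -0.75), an outer dynein arm chain, fell least among those named.

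The developmental pathways were read by role, as ligands, receptors, modulators and targets. In the Wnt pathway, 4 of 13 ligands rose (30.8%) and 5 fell (38.5%), beside 27.6% and 30.6% of all autosomal genes. Of 30 receptors and secreted modulators 21 fell and 5 rose (median -0.78). The ligand Wnt3 was at 10.9, 9.53 and 11.8 CPM in Ts65Dn and 1.43, 1.28 and 0.859 CPM in the libraries labelled Ts65Dn;Brwd1+/- (log2 fold change -3.20 with SE 0.20, edgeR quasi-likelihood test, adjusted p = 6.80e-07), while the forebrain ligands Wnt7a (27.8 to 57.5 CPM, log2 fold change 1.05) and Wnt7b (70.3 to 119 CPM, log2 fold change 0.76) rose. Fzd10, a Frizzled receptor, was at 54.8, 63.8 and 62.98 CPM against 1.65, 1.34 and 1.38 CPM and 1.60, 2.37 and 1.59 CPM in euploid, so that Ts65Dn again stood alone (log2 fold change -5.37 with SE 0.15, edgeR quasi-likelihood test, adjusted p = 3.21e-09). The secreted inhibitor Sfrp1 (936 to 457 CPM, log2 fold change -1.03) fell. Of 10 target and feedback genes 3 rose (30%) and 4 fell (40%), again beside 27.6% and 30.6% of all autosomal genes. Among these, Axin2 (62.003 to 38.4 CPM, log2 fold change -0.69) was lower and Rnf43 (0.608 to 1.55 CPM, log2 fold change 1.36) and Nkd2 (7.61 to 11.4 CPM, log2 fold change 0.58) were higher.

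Of 24 Notch genes tested, 8 rose and 8 fell, shares near the 27.6% and 30.6% of all autosomal genes. The ligands Dll1 (14.2 to 50.7 CPM, log2 fold change 1.84) and Dll3 (2.30 to 22.5 CPM, log2 fold change 3.28) and the fringe enzyme Mfng (0.764 to 13.4 CPM, log2 fold change 4.14) rose with the target Hes5 (3.51). The target Hes1 (-1.02) and the receptor Notch2 (-0.63) fell, and the receptor Notch1 did not pass the test (304 ± 46.2 and 272 ± 4.68 CPM, SD, n = 3 each). Proneural factors rose in 7 of 12 cases (median 0.81), with Myt1, a zinc finger factor of newborn neurons, at 8.17, 4.05 and 4.33 CPM against 62.2, 55.3 and 60.02 CPM (log2 fold change 3.41 with SE 0.22, edgeR quasi-likelihood test, adjusted p = 1.82e-06), beside Insm1 (3.05), Neurog2 (1.97) and Neurod1 (1.54). The repressors Id1 (-0.83) and Id3 (-0.32), which hold proneural factors in check, fell.

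Receptors and co-receptors of Sonic hedgehog fell, with Gas1 (-1.35), Boc (-1.17), Cdon (-1.07) and Smo (-1.04), while the feedback genes Ptch1 (0.47) and Hhip (1.42) rose. Shh itself was at 5.47, 8.74 and 8.74 CPM against 8.74, 10.3 and 9.97 CPM, overlapped between the groups and did not pass the test (log2 fold change 0.34 with SE 0.18, edgeR quasi-likelihood test, adjusted p = 0.131). In the BMP and TGF-beta pathway 27 of 42 members fell and 4 rose (median -0.45). The falls included ligands (Bmp4 (-2.45), Bmp6 (-1.70), Bmp7 (-0.75), Tgfb2 (-0.45)), receptors (Tgfbr2 (-1.78), Tgfbr3 (-3.36)) and the inhibitory Smads (Smad6 (-1.91), Smad7 (-0.64)). In the FGF pathway 7 of 25 rose and 6 fell, shares near or under the 27.6% and 30.6% of all autosomal genes, with receptors Fgfr1 (-1.09) and Fgfr2 (-0.85) lower and the neuronal factor Etv1 (2.66) higher.

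Targets of YAP and TEAD, which respond to cell spreading and tension, fell in 13 of 15 cases with none higher (median -1.26). Ccn2, a matrix-associated growth regulator, was at 483, 655 and 764 CPM against 124, 169.9 and 158 CPM, with euploid libraries in between at 348, 368 and 379 CPM (log2 fold change -2.07 with SE 0.17, edgeR quasi-likelihood test, adjusted p = 3.29e-06). In the insulin-like growth factor pathway 12 of 15 fell (median -0.89). Its binding protein Igfbp2, a product of meninges and of glia, was at 5454, 8832 and 8844 CPM in Ts65Dn and 869, 911 and 870.0 CPM in the libraries labelled Ts65Dn;Brwd1+/- (log2 fold change -3.13 with SE 0.20, edgeR quasi-likelihood test, adjusted p = 6.31e-07). Of 13 neurotrophin and receptor genes 4 rose (30.8%) and 6 fell (46.2%), beside 27.6% and 30.6% of all autosomal genes. Their median was -0.25, and 0.01 without Ts65Dn replicate 2. Retinoic acid genes fell in 9 of 17 cases, with the synthetic enzymes Aldh1a1 (-3.44) and Rdh10 (-1.61) and the reductase Dhrs3 (-3.17) lower and Aldh1a3 (2.00) and the receptor Rxrg (2.01) higher. Of 20 immediate early genes 11 fell and 3 rose (median -0.41): Fos (-1.35), Junb (-1.47) and Egr1 (-0.63) fell, and Nptx2 (1.00) and Homer1 (0.60) rose, though neither did without replicate 1 labelled Ts65Dn;Brwd1+/-.

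Lists of structural matrix genes were mostly lower, and proteoglycans were split. Of 21 fibrillar and associated collagens 17 fell (median -1.84), of 19 basement membrane genes 14 (median -1.01), of 27 matrix proteases and inhibitors 19 (median -0.86) and of 17 integrins 14 (median -1.37). Mmp2, a gelatinase, was at 119, 141 and 183 CPM in Ts65Dn, 4.55, 6.29 and 5.38 CPM in the libraries labelled Ts65Dn;Brwd1+/- and 8.20, 11.6 and 8.51 CPM in euploid (log2 fold change -4.78 with SE 0.21, edgeR quasi-likelihood test, adjusted p = 2.60e-07). Col1a1, the main fibrillar collagen of fibroblasts, was at 90.6, 146 and 143 CPM against 10.7, 9.85 and 14.5 CPM (log2 fold change -3.43 with SE 0.23, edgeR quasi-likelihood test, adjusted p = 2.70e-06). Both left a wide gap between the groups, and Hspg2 (1024 to 262 CPM, log2 fold change -1.97), Lamc1 (804 to 297 CPM, log2 fold change -1.44) and Itga5 (43.3 to 6.44 CPM, log2 fold change -2.75) fell too. Of 21 genes of proteoglycans and perineuronal matrix 10 rose and 9 fell (median 0.48, and 0.09 with at least 10 counts in every library). The brain lecticans Vcan (17.01 to 85.8 CPM, log2 fold change 2.33), Bcan (245 to 595 CPM, log2 fold change 1.28) and Ncan (599.7 to 1325 CPM, log2 fold change 1.14) and the link protein Hapln1 (11.3 to 36.4 CPM, log2 fold change 1.69) rose. In contrast, Gpc6 (374 to 73.2 CPM, log2 fold change -2.35), Fmod (964 to 202 CPM, log2 fold change -2.25) and Ogn (506 to 122 CPM, log2 fold change -2.05) fell. Decorin (Dcn) rose from 1.31, 0.889 and 1.63 CPM to 29.4, 20.3 and 20.2 CPM, against the direction of the fibroblast collagens.

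Markers of the cell types that make such matrix mostly fell as well. Col1a1, Col1a2 and Dcn stand both among the fibroblast markers and in the matrix lists, so the lists are not independent. Meningeal and fibroblast markers fell in 7 of 11 cases (median -2.04), and 2, Dcn and Pdgfra, rose. Their summed levels were 5664, 9122 and 9136 CPM in Ts65Dn and 1053, 1064 and 1051 CPM in the libraries labelled Ts65Dn;Brwd1+/-, most of it Igfbp2. Endothelial and pericyte markers fell in 5 of 7 cases and choroid plexus markers in 6 of 10 (3 without replicate 1 labelled Ts65Dn;Brwd1+/-), with none higher. The endothelial sum was 736, 863 and 969 CPM against 137, 187 and 186 CPM, and most of it was Kdr, a VEGF receptor, at 651, 757 and 858 CPM against 85.3, 127 and 123 CPM (log2 fold change -2.76 with SE 0.16, edgeR quasi-likelihood test, adjusted p = 3.65e-07). The defining endothelial marker Flt1 (1.24 to 0.539 CPM, log2 fold change -1.21) was at about 1 CPM, Pecam1 was at 0.443 and 0.739 CPM and did not pass the test, and 5 of the 12 listed were too low to be tested. The part of these cell types in the matrix results was not tested.

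Immune genes gave one-sided counts. All 25 interferon-stimulated genes tested fell, with a median of -3.22 (-3.14 without Ts65Dn replicate 3). Ifit1 (mm10 chromosome 19, 34640871 to 34650009), which binds foreign RNA, was at 55.7, 46.3 and 65.6 CPM in Ts65Dn, 3.48, 2.62 and 1.31 CPM in the libraries labelled Ts65Dn;Brwd1+/- and 32.9, 12.8 and 15.1 CPM in euploid, where replicate 1 was high (log2 fold change -4.53 with SE 0.43, edgeR quasi-likelihood test, adjusted p = 1.97e-05). Isg15, a ubiquitin-like protein, was at 17.7, 15.3 and 23.8 CPM against 1.43, 1.78 and 1.16 CPM (log2 fold change -3.73 with SE 0.36, edgeR quasi-likelihood test, adjusted p = 2.03e-05). In both, the euploid libraries lay between the others. Oasl2 (94.04 to 5.32 CPM, log2 fold change -4.16), Irf7 (26.1 to 1.60 CPM, log2 fold change -4.04) and Bst2 (79.7 to 7.26 CPM, log2 fold change -3.46) fell likewise. Reads of interferon genes with near-identical neighbours, such as Oas1a and Ifit3, and of class I histocompatibility genes may be split between copies, and their values are less certain.

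Interferon acts through the interferon-stimulated response element, and its letters, GAAA and again GAAA after 2 bases of any kind, searched on both strands after the values were seen, stood in 11 of 20 promoters of this list (55%) and in 2.98% of all 10721. They stood in 6.97% of promoters of genes that fell by more than 2-fold and in 2.61% of those that rose by more than 2-fold. The 200 bases before the start of Isg15 (chr4:156200819-156201018, minus strand), Ifit1 (chr19:34640689-34640888, plus strand) and Bst2 (chr8:71537473-71537672, minus strand) are shown as members that fell and carry it, with all matches in capitals, which overlap in Isg15 and Bst2 and stand in reverse orientation in Ifit1.
Isg15: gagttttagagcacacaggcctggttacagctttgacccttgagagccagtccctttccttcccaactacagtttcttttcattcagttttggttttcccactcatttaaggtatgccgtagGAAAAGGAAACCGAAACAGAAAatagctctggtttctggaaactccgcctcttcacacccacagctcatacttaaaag
Ifit1: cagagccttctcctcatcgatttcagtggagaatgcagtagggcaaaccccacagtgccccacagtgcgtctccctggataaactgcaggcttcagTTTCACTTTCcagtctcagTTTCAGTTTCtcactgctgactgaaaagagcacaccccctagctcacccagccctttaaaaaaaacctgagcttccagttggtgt
Bst2: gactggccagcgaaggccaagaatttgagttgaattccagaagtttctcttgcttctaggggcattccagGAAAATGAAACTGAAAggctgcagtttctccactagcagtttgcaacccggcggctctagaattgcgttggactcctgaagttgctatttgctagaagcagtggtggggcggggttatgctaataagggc
The first matching letter lies 78, 104 and 130 bases before the start in this order. A match describes the sequence only.

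Antigen presentation and complement fell with the interferon genes. Of 18 antigen presentation genes 17 fell (median -2.15), among them B2m (355 to 50.6 CPM, log2 fold change -2.81), the light chain of class I molecules, and the peptide transporter Tap1 (106 to 26.9 CPM, log2 fold change -1.98). Complement genes fell in 14 of 15 cases (median -2.47). C3, the central component, was at 789, 653 and 929.9 CPM in Ts65Dn, 39.8, 35.9 and 37.5 CPM in the libraries labelled Ts65Dn;Brwd1+/- and 256, 179 and 206 CPM in euploid (log2 fold change -4.39 with SE 0.17, edgeR quasi-likelihood test, adjusted p = 2.69e-08). NF-kB targets, cytokines and chemokines fell in 14 of 16 cases (median -1.76), with Lcn2 (19.5 to 0.808 CPM, log2 fold change -4.59), Ccl5 (8.50 to 0.379 CPM, log2 fold change -4.60), Cxcl10 (42.1 to 4.27 CPM, log2 fold change -3.32) and Nfkbia (37.96 to 19.7 CPM, log2 fold change -0.95). Microglia, the immune cells of the brain, were scarce in these libraries by their markers: of 14 listed, 5 were too low to be tested, 7 fell, and the complement gene C1qa (1.19 to 0.0954 CPM, log2 fold change -3.66) and Cx3cr1, at 0.327, 0.247 and 0.574 CPM against 0.0446, 0 and 0.0373 CPM, were near the limit of counting. The microglial sum was 45.2, 47.1 and 54.99 CPM against 18.3, 24.8 and 21.9 CPM. The part of microglia in these results was not tested.

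**Figure D4:**
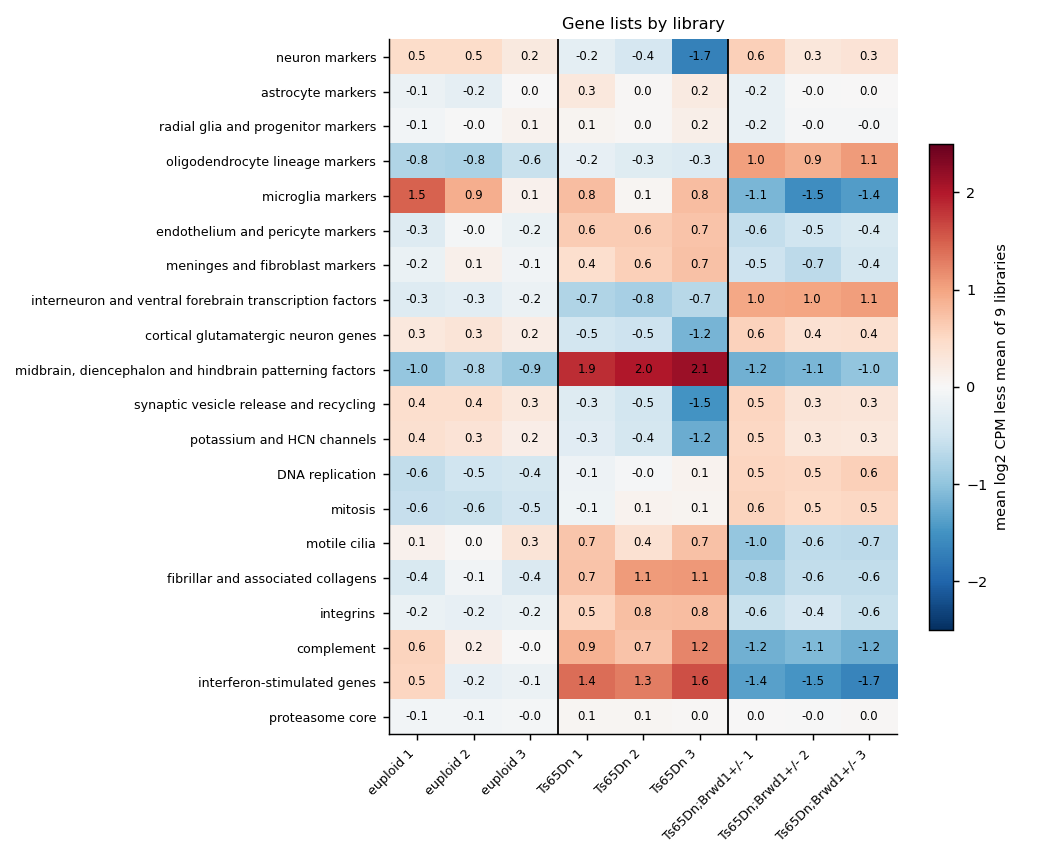
Mean log2 CPM of the tested members of 20 gene lists in each of the 9 libraries, less the mean over the 9 libraries (0.1 CPM added before the log). Columns are libraries in order of genotype label and replicate; Ts65Dn replicate 3 has the lowest neuronal lists, and the patterning list is high in the 3 Ts65Dn libraries alone.

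Medians of the metabolism and stress lists lay between -0.60 and 0.42. The endoplasmic reticulum's unfolded protein response fell in 17 of 21 cases with none higher (median -0.54), and its chaperone Hspa5 was at 1124, 1301 and 1341 CPM against 692, 710.0 and 679 CPM (log2 fold change -0.86 with SE 0.10, edgeR quasi-likelihood test, adjusted p = 2.88e-05). Targets of NRF2 and antioxidant enzymes fell in 17 of 24 (median -0.38), with the metallothioneins Mt1 (-0.92) and Mt2 (-1.30) and Hmox1 (-0.87). Hypoxia genes fell in 9 of 17 (median -0.46), including Vegfa (-0.85), P4ha1 (-1.88) and Ndrg1 (-1.74). Of 22 glycolytic genes 8 fell and 3 rose, a share of falls near the 30.6% of all autosomal genes (median -0.11), with the glucose transporter Slc2a1 (-0.76) and the lactate transporter Slc16a1 (-1.24) lower and the neuronal enolase Eno2 (1.06) higher. Cholesterol was split by step: synthesis genes rose in 12 of 21 cases with none lower (median 0.42), including Fdps (0.95) (4 rose, and Fdps did not pass the test, without replicate 1 labelled Ts65Dn;Brwd1+/-), and efflux and lipoprotein genes of glia fell in 12 of 16 (median -0.60), with Abca1 (-1.36), Apoe (-0.75) and Clu (-1.73).

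Housekeeping lists had small medians. Of 48 ribosomal protein genes 28 rose and 1 fell (58.3% higher, beside 27.6% of all autosomal genes), with a median of 0.24. Nuclear genes of oxidative phosphorylation had a median of 0.15, with 11 of 38 higher (28.9%, near the 27.6% of all autosomal genes). When libraries were scaled by size alone, which moved the median of all genes by 0.07, the counts of rises were 36 and 20. For comparison, without Ts65Dn replicate 3 they were 20 and 7, without Ts65Dn replicate 2 the first was 17, and without replicate 1 labelled Ts65Dn;Brwd1+/- they were 16 and 6. Of 30 proteasome genes 2 fell, Psmc3 (162 to 131 CPM, log2 fold change -0.31) and Psmc2 (101 to 85.7 CPM, log2 fold change -0.23), and none rose (median -0.05), so that the share called in this list was far under the 58.1% of all autosomal genes. Psmc2 did not pass the test with libraries scaled by size alone (edgeR quasi-likelihood, adjusted p = 0.0677).

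Among chromatin regulators, the BAF remodelling complex, which has been tied to Brwd1, rose in 18 of 29 subunits and fell in 2 (median 0.57). The subunits of neurons, Actl6b (30.3 to 97.8 CPM, log2 fold change 1.69), Dpf1 (35.1 to 79.5 CPM, log2 fold change 1.18) and Ss18l1 (29.8 to 63.9 CPM, log2 fold change 1.10), and the ATPase Smarca4 (331 to 493 CPM, log2 fold change 0.58) rose. Smarcd2 (27.7 to 18.05 CPM, log2 fold change -0.62) and the progenitor subunit Ss18 (51.8 to 39.3 CPM, log2 fold change -0.40) fell. The progenitor subunits Actl6a (32.9 ± 3.995 and 32.4 ± 2.05 CPM) and Phf10 (60.6 ± 2.30 and 58.96 ± 3.48 CPM, SD, n = 3 each) did not pass the test. The other ATPase Smarca2 differed by less than the spread, with 299, 316 and 310.1 CPM against 328, 305 and 315 CPM (log2 fold change 0.04 with SE 0.07, edgeR quasi-likelihood test, adjusted p = 0.694). Bcl11b and Bcl11a (27.8 to 114 CPM, log2 fold change 2.03), which are counted with the complex and also mark classes of neurons, rose most. Polycomb genes rose in 10 and fell in 4 of 20 cases (50% and 20%), with Ezh2 (32.9 to 52.5 CPM, log2 fold change 0.67) and Cbx2 (9.39 to 21.1 CPM, log2 fold change 1.17) higher. DNA methylation genes rose in 7 and fell in 5 of 15 cases (46.7% and 33.3%). The shares over all autosomal genes were 27.6% and 30.6%. The maintenance methyltransferase Dnmt1 (98.5 to 176 CPM, log2 fold change 0.84) was higher and Gadd45b (23.3 to 5.41 CPM, log2 fold change -2.11) lower. Neuronal splicing factors rose in 18 of 27 cases (median 1.05, and 0.77 without Ts65Dn replicate 3), including Celf4 (99.1 to 322 CPM, log2 fold change 1.70), Srrm4 (22.5 to 65.7 CPM, log2 fold change 1.54) and Nova1 (10.9 to 32.4 CPM, log2 fold change 1.57). Ptbp1 (149 to 83.7 CPM, log2 fold change -0.83), the splicing repressor of non-neuronal cells, fell, and its neuronal relative Ptbp2 (55.7 to 120.2 CPM, log2 fold change 1.11) rose.

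The calls were spread over the genome. Between 55.4 and 61.6% of the tested genes of each of the 19 autosomes passed the test. In the segment that Ts65Dn mice carry in an extra copy, 34 of 134 genes rose and 41 fell (56.0%), with a median of -0.01, shares near those of all autosomal genes. By more than 2-fold, 10 of these 134 rose and 22 fell, beside 1457 and 2183 of the 16379 other autosomal genes. Among protein-coding genes, 72.9% of the longest of 5 equal groups by gene length (over 80.4 kb) and 57.3% of the shortest group (up to 8.70 kb) passed the test, with 37.7 and 29.1% higher and 35.2 and 28.2% lower. No test of this difference was made.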

How the data were processed

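For each library, the authors mapped reads (HISAT2, genome mm10) and deposited raw read counts by gene. Their methods name featureCounts, while each file ends with lines of the htseq-count kind that name no gene. These lines held 37.4 to 40.0% of counts and were left out. Whether strand was used in the counting is not given in the sources used here. Of 52636 gene lines, 52489 (99.7%) matched GENCODE M21, and 17173 genes passed filterByExpr. CPM are counts scaled to library size with TMM factors. All 9 culture libraries were fitted with genotype as the only factor in edgeR 4.0.16 (glmQLFit with robust settings, glmQLFTest, R 4.3.3), with Benjamini-Hochberg adjustment over all tested genes and a threshold of 0.05. DESeq2, a fit with 1 RUVr factor (the study used both together), limma-voom, other scaling and filters, a replicate block and leaving out each library were alternatives. In simulated counts for this comparison over 17173 genes, the fit found 100% of 50 genes raised 4-fold, 88% of those raised 2-fold, 32% of those raised 1.5-fold and 78.3% of 46 lowered to 0.5 of their level, with 12 unchanged genes called. The simulation changed few genes and gave all groups the same spread. In the data 58.1% of autosomal genes were called and Ts65Dn libraries spread most, so these figures need not hold for the comparison itself. Pairs of libraries of 1 genotype correlated with r from 0.983 to 0.994 across genes, and their counts differed by more than sampling noise (chi-square per gene 4.05 to 51.1, near 1 for a copy). No label says that replicates are separate cultures, so p-values measure only the spread between these libraries.

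The lists and the genes named were chosen with earlier results of these data known and give no independent support. Named genes were taken from Brwd1 and sex-linked genes, the 10 largest rises and falls among called protein-coding genes at 10 CPM or more whose groups do not overlap, up to 4 called members per list and direction at 1 CPM or more, and anchor genes of each list. Log2 fold changes are fitted values, and values in CPM compare 1 gene between libraries, not genes with each other. Peak lists of the other assays were not used here. Some genes are not reported here.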

Additional observations from a re-analysis of the deposited data

Results flagged for a closer look

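Results outside the autosomal comparison stood out. Xist, on the X chromosome, had a mean of 1779 CPM in the libraries labelled Ts65Dn;Brwd1+/- and under 2 CPM in every Ts65Dn and euploid library. The Y-linked genes Ddx3y, Uty, Kdm5d and Eif2s3y summed to a mean of 213 CPM in the Ts65Dn libraries and to at most 0.149 CPM in any library labelled Ts65Dn;Brwd1+/-. Both were picked out because they are signals in genes that the comparison does not use, and both go against the label of pooled sexes. Sex and genotype label cannot be told apart.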

How the results depend on the processing

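The number of autosomal calls stayed within 1.5 times of 9597 under all 20 alternatives, from 8046 without replicate 1 labelled Ts65Dn;Brwd1+/- to 10684 at a threshold of 0.1, and no gene called both there and under an alternative changed sign. Leaving out 1 library gave 8046 to 9673 calls, 3606 to 4504 higher and 4440 to 5169 lower. DESeq2 gave 9312 calls. Scaling by library size alone put 54.4% of calls on the higher side and a minimum of 10 counts in every library 54.7%, against 47.4%. The replicate numbers were not taken to pair the libraries, since no label says that they do. Deviations of same-numbered libraries of the 2 groups correlated at 0.28, -0.13 and 0.20, those of euploid and Ts65Dn at 0.13, 0.21 and 0.26, and those of euploid and Ts65Dn;Brwd1+/- at 0.09, -0.16 and 0.18. Libraries of different number correlated at -0.38 to 0.25, -0.21 to 0.02 and -0.27 to 0.17 in the same order. For euploid and Ts65Dn the same-numbered values were thus the higher ones. A replicate block gave 9891 calls. With a minimum of 10 counts in every library, 12 patterning factors were tested, of which 8 fell and 3 rose (median -1.64, against -3.97), the median of ventral forebrain factors was 1.20 (against 2.05), and 8 complement genes were tested and fell. Rising Wnt receptors and modulators went from 5 to 3 without Ts65Dn replicate 1 or without replicate 1 labelled Ts65Dn;Brwd1+/-, rising immediate early genes from 3 to 5 without Ts65Dn replicate 2 and to 0 without replicate 1 labelled Ts65Dn;Brwd1+/-, and rising FGF genes from 7 to 11 with scaling by library size alone. Of the genes named, only Actl6a and Phf10, which did not pass the test, changed the sign of their log2 fold change (-0.02 and -0.04). For Actl6a it was 0.0611 with limma-voom, 0.0462 with library size alone, 0.0101 with no filter and 0.0330 with at least 10 counts in every library, and leaving out single libraries gave -0.0878 to 0.0815. For Phf10 it was 0.0283 with library size alone and 0.0139 with at least 10 counts in every library. Grin1 and Snap25 also lost their call without euploid replicate 1 or 2 and without replicate 2 or 3 labelled Ts65Dn;Brwd1+/-, Grin2b and Syt1 without replicate 2 labelled Ts65Dn;Brwd1+/-, and all 4 in a fit of the 6 libraries alone (with Fdps) and with no filter on low counts. With no filter, Slc12a5 (adjusted p = 0.0543), Nptx2 (0.0594), Fdps (0.0976) and Psmc2 (0.0982, edgeR quasi-likelihood test) lost theirs too. Cx3cr1 lost its call in 6 alternatives: with no filter and without Ts65Dn replicate 1 or 3 or any 1 of the 3 libraries labelled Ts65Dn;Brwd1+/-. The cause was not tested.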
